A study of Mus musculus with 5 samples.

Results

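The genes described here are 31 genes of fat cells and lipid storage, measured in the whole colon of mice. They were chosen by name, as genes of adipocyte identity, of the lipid droplet and of the making, uptake and breakdown of stored fat, and each was represented by its brightest probe. Of 45616 features on the array these are 31, and 30 of them lay well above background on at least 2 of 5 arrays and were tested, among 32917 tested features in all. The one left out was Ucp1. Each Agilent single-colour array held Cy3-labelled RNA of the colon of 1 mouse. There were 2 Control mice, which were untreated, and 3 NT-3N mice, whose colon was taken 3 hr after NT-3N, a modified human IL-11 that activates the IL-11 receptor, was injected into a vein. All were wild-type mice, aged 8 weeks, of the strain labelled C57BL/B6. The controls received no vehicle, so that the injection and the agonist cannot be told apart. The dose is not given here because the sources state it in different units.

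White fat cells keep triglyceride in a single large droplet. Perilipins and CIDE proteins coat the droplet, lipases and their cofactors release fatty acids from it, and a set of enzymes refills it from glucose and from fatty acids that lipoprotein lipase frees from the blood. Fat cells also secrete hormones such as adiponectin and leptin, and much of their programme is switched on by the nuclear receptor PPARG. The colon carries fat on its outer side along the mesentery, while several of the same lipid enzymes also work in the colon's own epithelium and muscle.

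The share of probes well above background was 70.6% to 72.9%, no spot was saturated, and the 5 arrays shared 1 slide and 1 scan time. The depth of an array is not a count, and the number of mice limits the precision of every value. Levels are log2 of the processed signal after quantile normalization, and a difference of 1 is a doubling. A range is the highest minus the lowest level over the 5 arrays. In bulk tissue, fewer cells of a type and less RNA per cell cannot be told apart.

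Some of the fat cell genes differed far more between mice of the same group than between the groups. Complement factor D, adiponectin, resistin, perilipin 1 and carbonic anhydrase 3 were high on Control replicate 1 and NT-3N replicate 1 and low on Control replicate 2 and NT-3N replicate 3, whereas leptin and most enzymes of lipid storage lay close together on all arrays. For 6 of 30 members, against 14.8% of all features, the arrays of the groups did not overlap, with NT-3N lower. No member was called between NT-3N and Control in limma at an adjusted p under 0.05. Of all tested features 47, or 0.143%, were called, so that the count over the members is near that share.

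The defining genes of fat cells were taken as Adipoq, Plin1 and Cidec. Adipoq, which encodes the hormone adiponectin, had a log2 level of 9.26 on Control replicate 1, 5.21 on Control replicate 2, 8.76 on NT-3N replicate 1, 7.54 on NT-3N replicate 2 and 4.32 on NT-3N replicate 3. The highest and the lowest mouse thus differed by 4.93, or 30.5-fold, and each group held a high and a low mouse. Plin1, the perilipin that guards the droplet of fat cells, had 5.78 and 1.5 on the Control arrays and 5.33, 4.46 and 1.61 on the NT-3N arrays. It was well above background on 3 arrays and not on Control replicate 2 or NT-3N replicate 3, so that its highest level was at least 5.22-fold its lowest. Cidec, which joins droplets into larger ones, had 12.75 and 12.21 on the Control arrays and 12.42, 11.36 and 10.84 on the NT-3N arrays. Its range was 1.91, and Control replicate 2, on which Plin1 was at background, was here above both NT-3N replicates 2 and 3. All 3 defining genes were thus well above background on Control replicate 1 and NT-3N replicates 1 and 2. On Control replicate 2 and NT-3N replicate 3, Plin1 was at background and Adipoq and Cidec were still well above it. Cidec did not follow the array order of Adipoq.

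**Figure D1:**
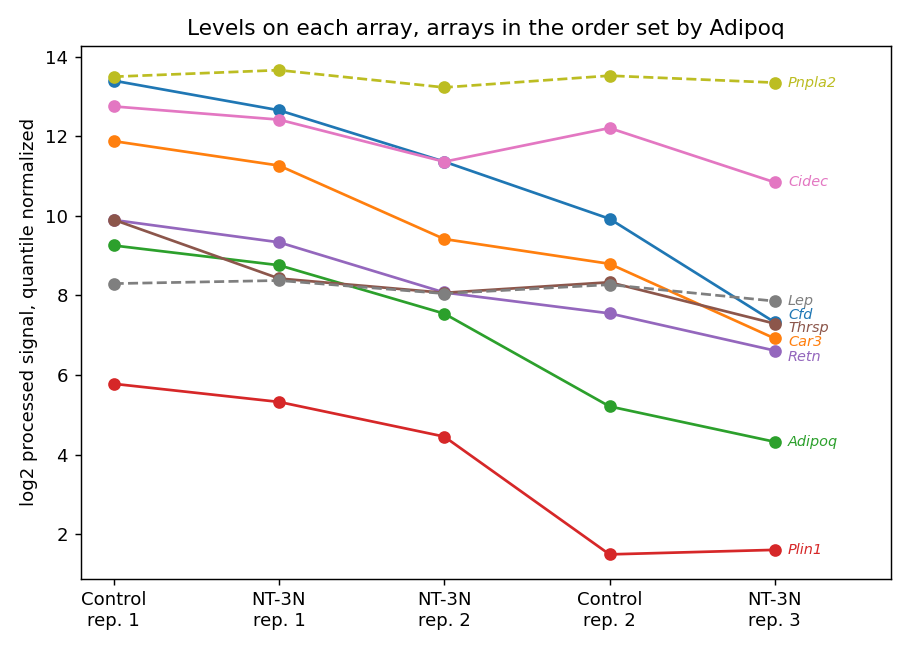
Level of 9 genes on each array, as log2 of the quantile-normalized processed signal, with the arrays placed in the order of Adipoq and 1 line per gene. Cfd, Car3, Adipoq and Retn descend at every step, Plin1 ends with both arrays that were not above background at 1.5 and 1.61, and the dashed lines of Lep and Pnpla2 stay nearly level.

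Among the secreted products, Cfd spread most. Cfd encodes complement factor D, also called adipsin, a protease of the alternative complement pathway that fat cells release. Its levels were 13.40 and 9.93 on the Control arrays and 12.65, 11.36 and 7.33 on the NT-3N arrays, a range of 6.07 or 67.3-fold. Of all tested features, 0.161% had a wider range. A second Cfd probe had a range of 5.97. Retn encodes resistin, a hormone of mouse fat cells, and had 9.90 and 7.55 on the Control arrays and 9.34, 8.08 and 6.62 on the NT-3N arrays. Its range was 3.28, or 9.73-fold, and its second probe gave 3.93. Lep encodes leptin, the hormone that signals fat stores to the brain. Lep had 8.30 and 8.27 on the Control arrays and 8.38, 8.05 and 7.86 on the NT-3N arrays, a range of 0.52, and 46.6% of all features had a wider one. The Lep probe thus did not share the spread of the other 3 secreted products on these arrays. Lep, like Adipoq, had no second probe to set beside it.

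Car3 encodes carbonic anhydrase 3, an abundant protein of fat cells and of muscle. It had 11.88 and 8.80 on the Control arrays and 11.26, 9.42 and 6.92 on the NT-3N arrays, a range of 4.96 or 31.1-fold. The arrays stood in the same order for Car3, Cfd, Retn and Adipoq, namely Control replicate 1, NT-3N replicate 1, NT-3N replicate 2, Control replicate 2 and NT-3N replicate 3. The 5 arrays can stand in 120 orders. This order, which was looked at after the values were seen, held for 4 of 30 members and for 1.11% of all tested features. Together with a range of at least 2 and a signal well above background on all 5 arrays it held for the same 4 members and for 0.0304% of all features, or 10 in number.

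Since several genes with a wide spread varied together, promoters of genes with a wide spread are shown. The RefSeq promoter table, built on GRCm38.p6, held 22 of the 31 members. The 150 bases before the start of transcription are shown for 4 of the 6 members with a range of at least 2. They are read on the strand of the gene, with a match to TTGCNNCAA, a site of C/EBP factors, in capitals. Thrsp, whose array order differed from that of Adipoq, is described with the synthesis genes. Of the members not shown, Plin1 had a window without a match and Car3 had no window. The first 3, Adipoq at chr16:23146386-23146535 on the plus strand, Cfd at chr10:79890703-79890852 on the plus strand and Retn at chr8:3655620-3655769 on the plus strand, held no match, and Thrsp at chr7:97417551-97417700 on the minus strand held 1.
Adipoq: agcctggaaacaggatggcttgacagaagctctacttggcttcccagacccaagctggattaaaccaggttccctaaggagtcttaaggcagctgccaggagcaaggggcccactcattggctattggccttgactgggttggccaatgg
Cfd: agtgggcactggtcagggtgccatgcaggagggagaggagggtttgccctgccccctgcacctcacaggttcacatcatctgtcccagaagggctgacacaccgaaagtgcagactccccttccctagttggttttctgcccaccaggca
Retn: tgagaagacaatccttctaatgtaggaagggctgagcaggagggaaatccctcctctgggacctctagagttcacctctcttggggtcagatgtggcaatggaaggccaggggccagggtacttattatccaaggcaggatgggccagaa
Thrsp: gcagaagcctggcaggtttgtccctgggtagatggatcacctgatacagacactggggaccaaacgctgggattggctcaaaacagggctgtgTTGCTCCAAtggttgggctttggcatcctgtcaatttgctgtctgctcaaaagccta

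Motifs were searched on both strands in windows of 300 bases around the start, of which the members had 30 and all genes 32851. TTGCNNCAA was in 1 of the members' windows, that of Thrsp, and in 2.08% of all windows. AGGTCANAGGTCA, the repeat that PPARG binds together with RXR, was in 0 of the members' windows and in 13 of all windows, or 0.0396%. TATAAA was in 1 of the members' windows, that of Pparg, and in 13.6% of all windows. Adipoq, Cfd and Retn, which shared an order of arrays, thus had no match to these letters in the windows searched, and the table held no window of Car3.

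Of the other droplet coat genes, Plin4, a perilipin of small droplets, had a range of 1.07. Cidea, a relative of Cidec known from brown fat, had 6.86 and 7.49 on the Control arrays and 6.64, 6.86 and 7.41 on the NT-3N arrays. Cidea was thus highest on Control replicate 2 and next on NT-3N replicate 3, the arrays on which Plin1 was at background. Its range was 0.86.

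The 6 genes of fat breakdown spread less, with ranges between 0.43 and 1.09. The widest was Lipe, hormone-sensitive lipase, which cleaves diglycerides, with 6.21 and 6.0 on the Control arrays and 6.41, 5.79 and 5.33 on the NT-3N arrays. Lipe was lowest on NT-3N replicate 3, as Adipoq was, but its level on Control replicate 2 lay between those of NT-3N replicates 1 and 2. Pnpla2, the adipose triglyceride lipase that takes the first step, was the narrowest, with 13.50 and 13.52 on the Control arrays and 13.66, 13.23 and 13.35 on the NT-3N arrays. Mgll, the monoglyceride lipase of the last step, Adrb3, the β3-adrenergic receptor that starts lipolysis in fat cells, Lgals12, a galectin of the droplet, and Acvr1c, the activin receptor ALK7, had ranges of 0.86, 0.66, 0.55 and 0.58.

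Among the genes of uptake and transport, Fabp4, the fatty acid-binding protein of fat cells, macrophages and capillary endothelium, was the widest. It had 12.01 and 10.78 on the Control arrays and 11.83, 11.53 and 10.87 on the NT-3N arrays, a range of 1.23. Its low arrays were those of Plin1, Control replicate 2 and NT-3N replicate 3. Cd36, a fatty acid receptor that is also on macrophages and endothelium, was lowest on Control replicate 2 and highest on NT-3N replicate 2, with a range of 1.14. Acsl1, which activates long-chain fatty acids, was the narrowest, with 11.43 and 11.32 on the Control arrays and 11.20, 11.11 and 11.01 on the NT-3N arrays. Lpl, the lipoprotein lipase, Slc2a4, the insulin-regulated glucose carrier GLUT4, and Aqp7, a glycerol channel, had ranges of 0.94, 0.49 and 0.63.

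Of the 7 genes of lipid synthesis, Thrsp alone had a range above 1. Thrsp, a nuclear protein that rises with lipogenesis, had 9.90 and 8.33 on the Control arrays and 8.43, 8.07 and 7.29 on the NT-3N arrays. Control replicate 1 stood apart from the other 4 arrays, and a second Thrsp probe had a range of 2.85 beside 2.61. Elovl6, which lengthens fatty acids, was the narrowest of all members, with 11.94 and 12.01 on the Control arrays and 12.10, 11.90 and 11.69 on the NT-3N arrays. Dgat2 and Agpat2, which build triglyceride, Gpd1, which makes its glycerol backbone, and Pck1, which feeds that step from pyruvate in fat cells and makes glucose in liver, had ranges from 0.43 to 0.81. Pnpla3, a lipase relative, was well above background on 3 arrays and had a range of 0.86.

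The regulators differed from each other. Pparg, the receptor named above, which the colon epithelium also makes, had 13.83 and 13.69 on the Control arrays and 14.12, 13.49 and 13.35 on the NT-3N arrays. Adig, adipogenin, a small protein of fat cells, had 8.41 and 7.06 on the Control arrays and 7.44, 7.46 and 6.65 on the NT-3N arrays. Control replicate 1 was again the highest and NT-3N replicate 3 the lowest for Adig, with a range of 1.77 against 0.77 for Pparg. Ucp1, the uncoupling protein that makes heat in brown fat, was not well above background on any array, with values of 1.62 and 1.56 on the Control arrays and 1.59, 1.69 and 1.74 on the NT-3N arrays.

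**Figure D2:**
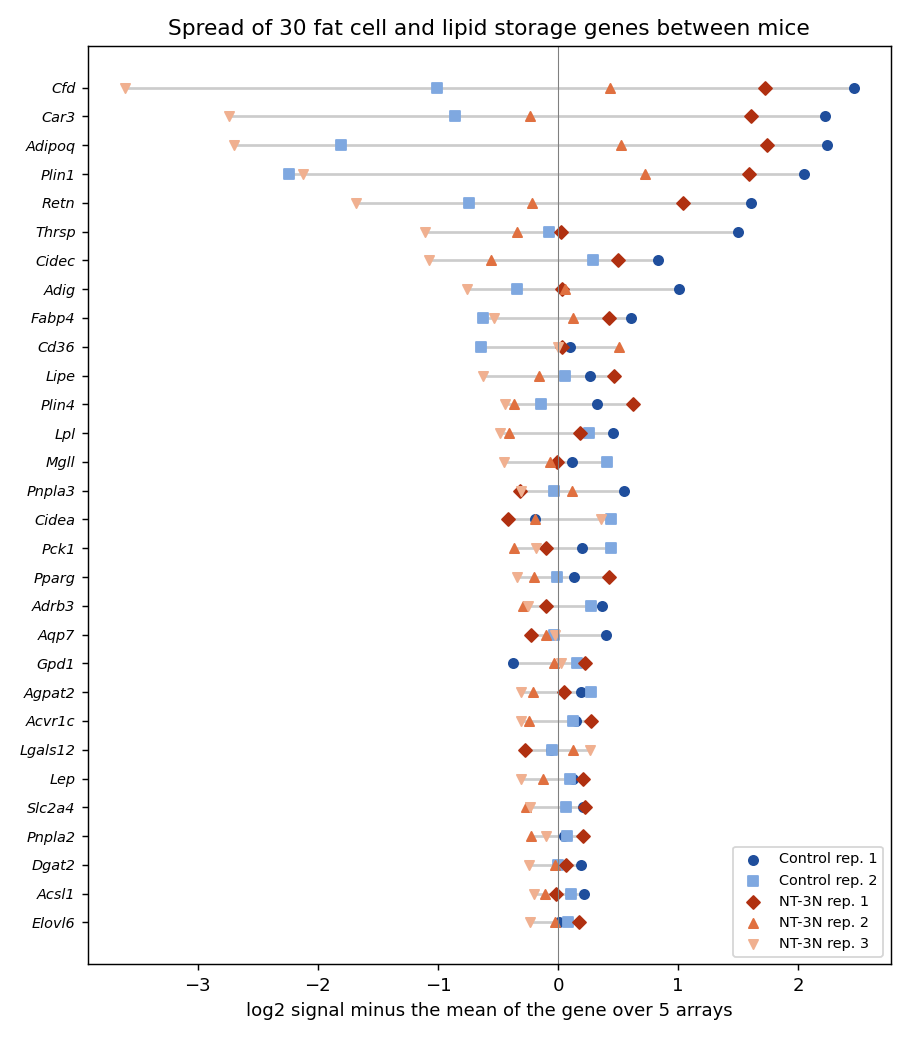
Level of each of the 30 tested genes on each array, minus the mean of that gene over the 5 arrays, in log2 units, with genes sorted by range, Control arrays in blue and NT-3N arrays in red. For the genes at the top Control replicate 1 lies on the right, NT-3N replicate 3 or, for Plin1, Control replicate 2 lies on the left, and the 2 colours are interleaved.

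A range of at least 1 was found for 12 of 30 members, against 16.1% of all tested features, and a range of at least 2 for 6 members against 3.09%. The median range was 0.86 over the members and 0.49 over all features. The spread lay within both groups. The size of the difference between the 2 Control arrays had a median of 0.36 over the members and 0.16 over all features, and the range within NT-3N a median of 0.56 and 0.33. Control replicate 1 was above Control replicate 2 for 22 members, against 52.2% of all features. NT-3N replicate 1 was above NT-3N replicate 3 for 26 members, against 48.2% of all features. Both held for 20 members and 27.4% of all features. The lowest array was NT-3N replicate 3 for 18 members and 19.6% of all features, and the highest was Control replicate 1 for 15 members and 19.8% of all features.

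Which members varied with the fat cell markers was described by subtracting, on each array, the mean level of Adipoq, Plin1 and Cidec, whose deviation from its average was 1.71 on Control replicate 1, -1.25 on Control replicate 2, 1.28 on NT-3N replicate 1, 0.23 on NT-3N replicate 2 and -1.96 on NT-3N replicate 3. For each of these 3 genes the mean of the other 2 was used. The range shrank for 6 members, against 0.346% of all tested features, of which 2, Adipoq and Plin1, are marker genes themselves. It went from 4.96 to 1.29 for Car3, from 3.28 to 0.96 for Retn, from 6.07 to 2.40 for Cfd and from 4.93 to 1.89 for Adipoq. The signal of Plin1, which was at background on 2 arrays, gives no measured range of its own and enters the marker mean there at its background value. For Thrsp it went only from 2.61 to 2.44. By construction a gene can shrink only if its range is large enough against the span of the mean subtracted from it. That span was 3.67, which set the limit at 1.84, and for Cidec, set against Adipoq and Plin1, the limit was 2.28 beside its range of 1.91. The measure thus says nothing of Cidec or of the other 23 members. Of the 1245 features above the limit 9.16% shrank, as did all 6 members above it.

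To ask whether NT-3N was followed by a change in these genes at 3 hr, the groups were compared with limma over all features. At an adjusted p under 0.05, 0 of 30 members were higher and 0 were lower in NT-3N than in Control, against 0.125% and 0.0182% of all features, which together make 47, or 0.143%. This count of 47 was 0 without NT-3N replicate 3, 1 without NT-3N replicate 2, 31 without Control replicate 1, 84 without NT-3N replicate 1 and 116 without Control replicate 2, with 0 members among them each time. The local-pooled-error test named in the study's methods called 2 members lower, Cidec and Car3, against 0.559% of all features lower and 1.21%, or 397, in either direction. At an unadjusted p under 0.05 in limma, 6 members were lower, against 4.67% of all features, and 0 were higher, against 4.95%. With 2 and 3 mice, the smallest p an exact permutation test could give for 1 gene is 0.1. The log2 fold change was below 0 for 25 of 30 members and for 53.6% of all features, and its median was -0.27 over the members and -0.019 over all features. That median lay between -0.075 without NT-3N replicate 3 and -0.45 without NT-3N replicate 1. The arrays of the groups did not overlap, with NT-3N lower, for 6 members and 14.8% of all features, and with NT-3N higher for 0 members and 13.5% of all features.

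The genes with the wide spread gave fold changes with wide intervals. The log2 fold change of Adipoq was -0.36, with a standard error of 1.57, a 95% interval from -4.15 to 3.43 and an adjusted p of 0.957 in limma. Leaving out Control replicate 1 gave 1.66 and leaving out Control replicate 2 gave -2.38. The log2 fold change of Cfd was -1.21 (adjusted p = 0.844 in limma), that of Car3 -1.14 (adjusted p = 0.818) and that of Retn -0.72 (adjusted p = 0.831). Without Control replicate 1 these turned to 0.52, 0.40 and 0.46, and without Control replicate 2 they were -2.95, -2.68 and -1.89. Plin1 had 0.16 (adjusted p = 0.983 in limma), between 2.30 without Control replicate 1 and -1.98 without Control replicate 2. Thrsp had -1.19 with an interval from -2.42 to 0.045 (adjusted p = 0.532 in limma), and Cidec had -0.94 with an interval from -2.0 to 0.13 (adjusted p = 0.567). The direction for most of the widest genes thus hung on which of the 2 Control mice was kept. For Adipoq, Cfd and Car3 it hung on NT-3N replicate 3 as well, since leaving out that mouse also turned them above 0.

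The 6 of 30 members whose groups did not overlap, beside 14.8% of all features with NT-3N lower, had ranges under 1. Pck1 had 12.99 and 13.23 on the Control arrays and 12.68, 12.42 and 12.60 on the NT-3N arrays, a log2 fold change of -0.54 with a standard error of 0.12 (adjusted p = 0.235 in limma). Adrb3 had 8.37 and 8.28 on the Control arrays and 7.90, 7.71 and 7.75 on the NT-3N arrays, a log2 fold change of -0.54 with a standard error of 0.12 (adjusted p = 0.258 in limma). A second Adrb3 probe differed by -0.53. Both genes were thus 0.54 lower in NT-3N than in Control on average, and neither passed the test after adjustment. The other 4 were Agpat2 at -0.39, Lpl at -0.59, Mgll at -0.44 and Acsl1 at -0.27, with adjusted p in limma from 0.39 to 0.479. Of the members that were not lower, Cd36 had the largest difference, 0.45 with an interval from -0.22 to 1.12 (adjusted p = 0.655 in limma). Lep had -0.19 with an interval from -0.61 to 0.23 (adjusted p = 0.756 in limma), and Fabp4 had 0.016 with an interval from -0.98 to 1.01 (adjusted p = 0.994).

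**Figure D3:**
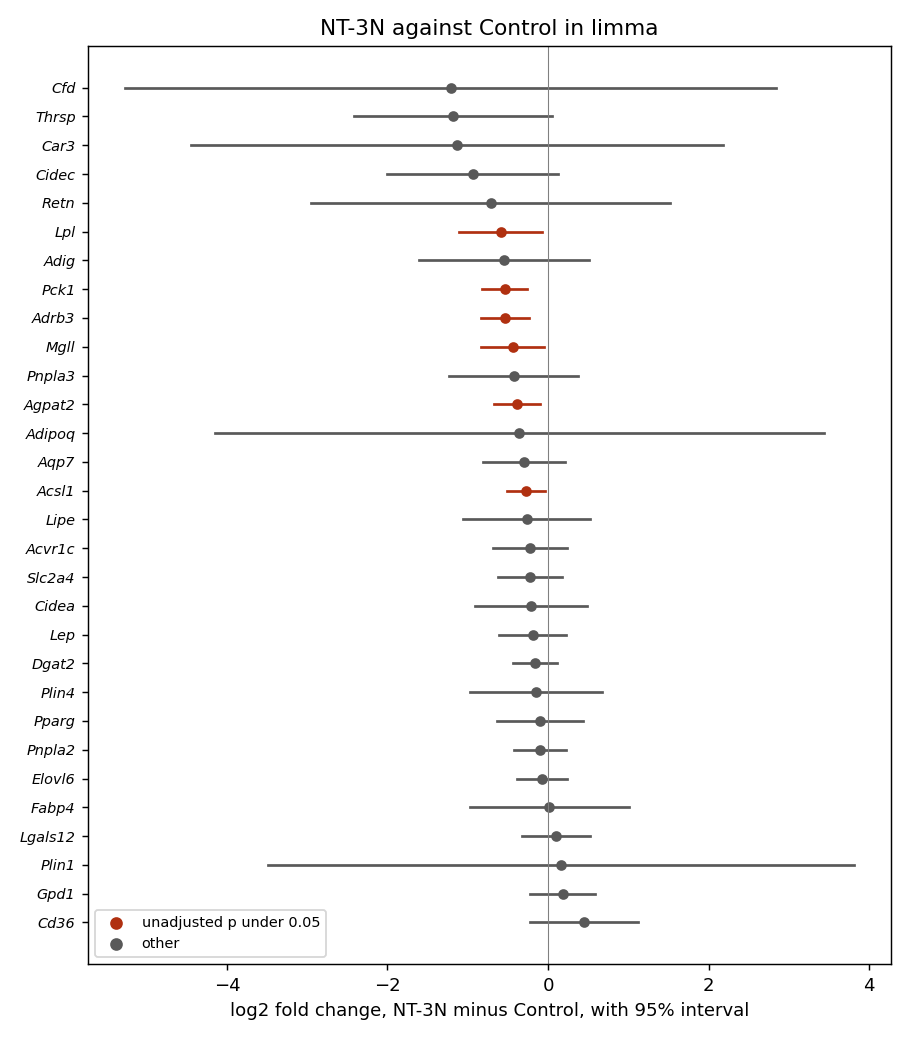
Log2 fold change of each of the 30 tested genes, NT-3N minus Control, with its 95% interval from limma, sorted by size, and in red the 6 genes with an unadjusted p under 0.05. The intervals of Cfd, Car3, Adipoq, Plin1 and Retn are the widest and include 0, and the red genes Lpl, Pck1, Adrb3, Mgll, Agpat2 and Acsl1 lie between -0.59 and -0.27.

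Another 45 genes of fat cells and lipid metabolism, all tested, gave 0 higher and 0 lower calls in limma, against 0.125% and 0.0182% of all features. At an unadjusted p under 0.05 in limma, 6 were lower and 0 higher, against 4.67% and 4.95% of all features. Of the 45 genes 33 had a log2 fold change below 0, against 53.6% of all features. Their median was -0.12, beside -0.019 over all features. A range of at least 1 was found for 7, near the share of 16.1% over all features. The median range was 0.48, beside 0.49 over all features. Among the widest were Scd1, a fatty acid desaturase, with a range of 1.51, and Angptl4, an inhibitor of lipoprotein lipase, with 1.47. Of 11 tested brown fat genes 0 were called in limma, with 1 higher and 1 lower at an unadjusted p under 0.05. The range of 1, Zic1, shrank on subtraction of the fat cell markers, against 0.346% of all features, though that range includes a background value. The widest were Zic1, a transcription factor, at background on Control replicate 2 and so with a range of at least 2.09, Kcnk3, a potassium channel, with 1.19, and Esrrg, a nuclear receptor, with 1.02.

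Markers of other tissues that can lie against the colon were set beside these genes. Of 10 exocrine pancreas genes 9 were tested and 0 were called in limma, also at an unadjusted p under 0.05. The highest array was Control replicate 1 for 7, against 19.8% of all features. The range of 6 shrank on subtraction of the fat cell markers, against 0.346% of all features and 9.16% of those above the limit. For Pnlip and Amy2b, which are among the 6, this rests in part on background values. The median deviation of the list from the mean was 4.03 on Control replicate 1 and -1.68 on Control replicate 2. It was 0.51 on NT-3N replicate 1, -1.49 on NT-3N replicate 2 and -1.49 on NT-3N replicate 3. Cela2a, a pancreatic elastase, had 14.03 and 5.32 on the Control arrays and 10.23, 5.79 and 6.01 on the NT-3N arrays. Pnlip, pancreatic lipase, and Amy2b, an amylase, were well above background on Control replicate 1 and NT-3N replicate 1 alone, so that their ranges were at least 5.82 and 5.65. The summed signal of the list was 81583 and 35480 on the Control arrays and was 37231, 50594 and 50370 on the NT-3N arrays, so that NT-3N replicate 1 was here the lowest of the NT-3N arrays. The sum includes Cela1 and Clps, whose ranges were 0.70 and 1.68. By median deviation, though not by the sum, the arrays highest and next highest for the pancreas list were those of Adipoq, Cfd, Retn and Car3, while NT-3N replicate 2, in the middle for those 4 genes, was as low as NT-3N replicate 3 for the pancreas genes.

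Of 9 B cell and lymph node genes, all tested, 0 were called in limma. At an unadjusted p under 0.05 in limma 1 was higher, against 4.95% of all features. The list had its lowest median deviation, -1.52, on Control replicate 2, with 0.22 to 0.51 on the other 4 arrays. Its summed signal was 5848 and 1778 on the Control arrays and between 5211 and 6368 on the NT-3N arrays. The widest were Ms4a1, the B cell antigen CD20, with a range of 4.59 and, unlike the list, its lowest level on Control replicate 1, Cxcr5, a chemokine receptor, with 2.99, and Fcer2a, an IgE receptor, with 2.87. Of 10 mesothelium genes, the lining on the outer face of the colon, 6 were tested and 0 were called in limma, also at an unadjusted p under 0.05, and Upk3b, Lrrn4, Muc16 and Bnc1 were not tested. The median deviation was highest on NT-3N replicate 3, at 0.72. Msln, mesothelin, had 7.20 and 4.90 on the Control arrays and 6.77, 7.07 and 8.98 on the NT-3N arrays, so that the mouse lowest for Adipoq was highest for Msln. Wt1, a transcription factor, and Gpm6a, a membrane protein, were well above background on 3 and 2 arrays, so that their ranges were at least 3.14 and 2.0.

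The lists of colon epithelium, endothelium, smooth muscle and macrophages had 0 calls each in limma and smaller shifts between arrays. All 9 smooth muscle genes had a log2 fold change below 0, with a median of -0.35 beside -0.27 for the fat cell and lipid storage genes. At an unadjusted p under 0.05 in limma, 4 of 9 smooth muscle genes were lower, against 4.67% of all features. Higher were 1 of 10 endothelium genes and 1 of 8 macrophage genes, against 4.95% of all features. Of 11 epithelium genes 0 were either. The median deviations of these lists lay between -0.37, for smooth muscle on NT-3N replicate 1, and 0.23, for smooth muscle on Control replicate 2. The widest 3 genes were Car1, Slc26a3 and Cdx2 of the epithelium with ranges of 1.27 to 0.80, Tek, Cldn5 and Ptprb of the endothelium with 1.03 to 0.77, Lmod1, Smtn and Actg2 of smooth muscle with 1.15 to 0.92, and Mrc1, Adgre1 and Cd68 of macrophages with 0.83 to 0.68. The part of pancreas, lymph node, mesothelium or any other tissue in the spread of the fat cell genes was not tested.

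**Figure D4:**
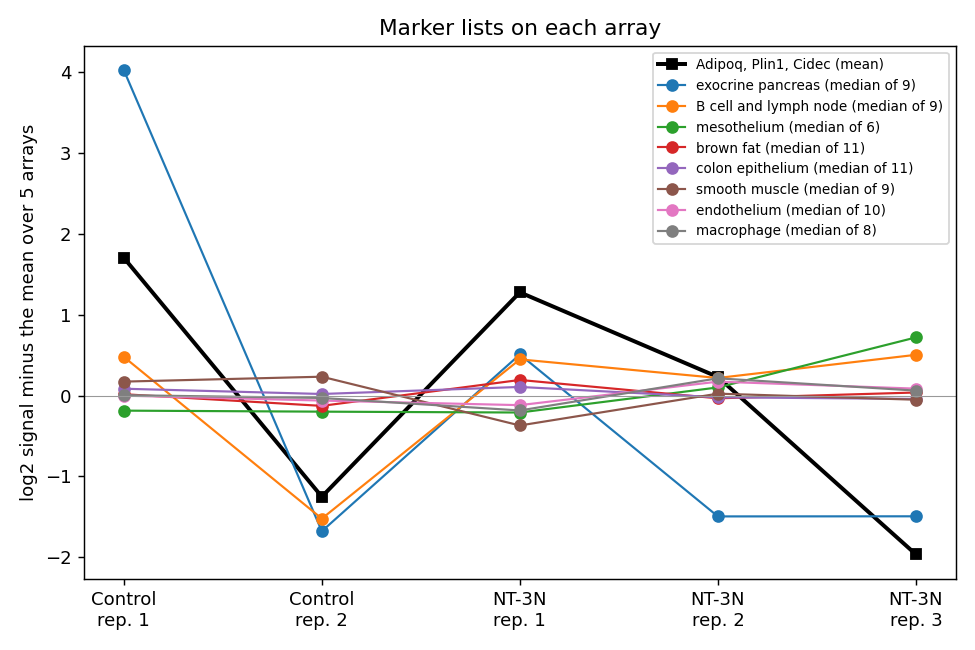
Deviation from the mean over the 5 arrays, in log2 units, for the mean of Adipoq, Plin1 and Cidec in black and for the median gene of each list of cell type markers in colour, on each array. The fat cell markers stand at 1.71 on Control replicate 1 and at -1.96 on NT-3N replicate 3, and the pancreas list stands at 4.03 on Control replicate 1.

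Across the whole array, 4 genes with a symbol that are no members shared the order of Adipoq with a range of at least 2 and lay well above background on all 5 arrays, a choice made after their values were seen. They were the pancreatic enzymes Cpa1 and Cel, with ranges of 6.90 and 2.16, the amylase Amy1, with 6.30, which is close in sequence to the pancreatic amylases and may share signal with them, and Cyp2e1, a cytochrome P450 of liver and fat, with 4.67.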

How the data were processed

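Whole-colon RNA of 2 Control and 3 NT-3N mice was hybridised to Agilent mouse arrays. Spots were extracted by the authors with Feature Extraction 11.0.1.1. In the deposited scanner files each spot has a background-subtracted processed signal, an intensity not scaled between arrays, with flags for outliers and background. The authors also deposited log2 values for 37380 probes, which matched the quantile-normalized log2 processed signal (correlation at least 0.9999 across probes on each array) and were used as an alternative.

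Control spots and outlier spots (69 to 184 of 59305 on an array) were left out, log2 values were averaged per probe and arrays were quantile-normalized. Probes well above background on at least 2 arrays, with values on both Control and at least 2 NT-3N arrays, were kept. Accessions were matched without version to symbols in a RefSeq table of GRCm38.p6, which named 32994 of 56605 probes. The brightest probe stood for each gene, and 13 of the 31 genes had more than 1 probe. Groups were compared over all features with limma 3.58.1 in R 4.3.3 (two-sided, lmFit, then eBayes with its intensity trend, Benjamini-Hochberg adjustment, threshold 0.05), and 95% intervals are from limma. The study's methods name a local-pooled-error test, which was run as an alternative. As run, it compares group medians and takes the spread from features of like signal, not from the single gene. Both tests were run on simulated data, and a limit on false calls was set for limma alone. The simulated arrays had independent noise for each gene. They thus do not show how either test behaves where genes vary together between mice.

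The genes and lists (other lipid genes, brown fat, pancreas, B cell, mesothelium, endothelium, epithelium, smooth muscle and macrophage) were chosen with earlier results of these data known. Levels on every array are given for Adipoq, Plin1, Cidec, Lep, Retn, Cfd, Fabp4, Ucp1 and the widest and narrowest gene of each role, and for Pck1, Adrb3, Cela2a and Msln, chosen after their values were seen. Of other lists the 3 widest genes are named, apart from 1 that is not reported here. A total of 15 alternatives covered scaling, background correction (normexp with an offset of 50, on the median spot signal), the deposited values, the filter, the choice of probe, the variance model, array weights, the test, the replicate number as a block and leaving out each array. A slide or scan block was not run, as there was 1 of each. Array coordinates refer to another build than the promoter table and are not given.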

Additional observations from a re-analysis of the deposited data

How the results depend on the processing

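No member was called by limma in the main setting or in any alternative other than the local-pooled-error test. That test called 2 members lower, Cidec at -1.12 (adjusted p = 6.25e-06) and Car3 at -0.92 (adjusted p = 0.0355). Its differences are between medians, those of limma between means, and it leaves out the spread of the single gene, which was wide for Car3. The count over all features moved from 47 to 2 without the filter on dim probes, 2 without the intensity trend, 170 with array weights, 397 with the local-pooled-error test and, without each array in turn, 0 to 116. The causes were not tested. The median fold change over the members, the count with a range of at least 1 and the count that followed the fat cell markers kept their direction or stayed within 1.5 times wherever they were run. The last count could not be made from the deposited log2 table or under the strictest filter, which kept probes measured on every array, since Plin1 is absent from both. At an unadjusted p under 0.05 the members lower numbered 14 without NT-3N replicate 1, where 8.14% of all features were lower, 3 without NT-3N replicate 3, where 3.91% were, and 3 without the intensity trend, where 4.71% were. Pck1 kept an unadjusted p under 0.05 in 13 of the 13 alternatives run for single genes, with adjusted p from 0.095 to 0.749, and Adrb3 in 12, with adjusted p from 0.101.

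Whether equal replicate numbers in the labels mark paired mice is not known. Deviations of arrays with the same number correlated across features at 0.13 for replicate 1 and 0.036 for replicate 2. With 2 Control arrays, the deviation of Control replicate 2 is minus that of Control replicate 1. The 2 correlations are thus not independent and cannot decide whether the mice were paired. With the replicate number as a block, NT-3N replicate 3 has no partner and gives no information, and 0 features were called. Fold changes turned to 0.92 for Adipoq, 0.0041 for Car3, 0.35 for Cfd, 0.026 for Elovl6, -0.022 for Lgals12, 0.041 for Plin4 and 0.050 for Pparg. These are the fold changes found without NT-3N replicate 3, so that the turns show nothing of pairing.

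Fold changes also turned for Fabp4 with normexp (-0.0042), with the mean of probes (-0.0084) and with array weights (-0.057), for Plin1 with normexp (-0.077) and with array weights (-0.068), and for Adipoq with the local-pooled-error test (0.31). Without each array in turn they ranged from -2.38 to 1.66 for Adipoq, -2.95 to 0.52 for Cfd, -2.68 to 0.40 for Car3, -1.98 to 2.30 for Plin1, -1.89 to 0.46 for Retn, -1.23 to 0.12 for Adig, -0.60 to 0.63 for Fabp4, -0.53 to 0.11 for Cidea, -0.49 to 0.083 for Plin4, -0.33 to 0.050 for Pparg, -0.18 to 0.026 for Elovl6, -0.086 to 0.45 for Gpd1 and -0.022 to 0.25 for Lgals12. A gene near background, such as Plin1 or Pnpla3, has only a bound on its low arrays.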
